A study of Mus musculus with 25 samples.

Results

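The 36 genes described here encode the sugar and lactate transporters, the enzymes of glycolysis and of the pentose phosphate pathway, the enzymes that set the fate of pyruvate, and sensors and targets of the hypoxia response. They were named as a list of symbols, and each of the 36 matched 1 of the 46078 genes of the count table by its Ensembl identifier. By role they fall into 4 transporters (*Slc2a1*, *Slc2a3*, *Slc16a1*, *Slc16a3*), 8 genes of upper glycolysis (*Hk1*, *Hk2*, *Gpi1*, *Pfkl*, *Pfkm*, *Pfkp*, *Pfkfb3*, *Pfkfb4*), 8 of lower glycolysis (*Aldoa*, *Aldoc*, *Tpi1*, *Gapdh*, *Pgk1*, *Pgam1*, *Eno1*, *Pkm*) and 2 of lactate dehydrogenase (*Ldha*, *Ldhb*). The other roles are 5 genes of the pyruvate dehydrogenase complex and its kinases (*Pdha1*, *Pdhb*, *Pdk1*, *Pdk2*, *Pdk3*), 5 of the hypoxia response (*Hif1a*, *Egln1*, *Egln3*, *Bnip3*, *Ero1l*) and 4 of the pentose phosphate pathway (*G6pdx*, *Pgd*, *Tkt*, *Taldo1*).

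RNA of wild type C57BL/6 mice (C57BL/6J in the study's methods) was sequenced in 25 libraries of 8 sorted populations of group 1 innate lymphoid cells (G1-ILCs), the class of innate lymphocytes that holds ILC1s and natural killer (NK) cells. No mutant, transgene or treatment was part of the design, and every population was gated as NK1.1+NKp46+ and CD3-. The mice were 8 weeks old, apart from fetuses at E18.5. The populations were LPL ILC1s (CD27+IL-7R+ cells of the small intestinal lamina propria, 4 libraries) and SG G1-ILCs (CD49a+CD49b+ cells of the salivary gland, 2). AL 7R+ ILC1s and AL 7R- ILC1s were CD49a+CD49b lo cells of the adult liver with and without the IL-7 receptor (3 and 4). FL G1-ILCs were cells of the fetal liver, in the study's gating CD49a+ and intermediate for CD49b (4). BM iILC1s were immature ILC1s of the bone marrow (CD49a+CD49b lo, 3). AL NK cells were CD49b+ and CD49a- (adult liver, 2), and BM NK cells had the same gate in bone marrow (3). The study calls the libraries biological replicates, and neither it nor the labels say which animals went into each, so p-values measure the spread between these libraries. Gut and salivary gland were digested with collagenase at 37 °C while liver and marrow were dissociated without it, so tissue and digestion cannot be told apart in LPL ILC1s and SG G1-ILCs.

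Totals ran from 2302643 to 7995906 counts per library, with a median of 4603579. FL G1-ILC replicates 2 and 3 differed by less than the other replicate pairs and close to the sampling noise (chi-square per degree of freedom 1.17, against 3.38 to 10.7 for the others), and were summed and counted as 1 sample, which left 24 samples. Levels are given as CPM, counts scaled to a common library total and by TMM (a factor for library composition), in replicate order, with the SD over samples. Summed levels of 7 NK cell markers were 31.8 to 329.9 CPM in LPL ILC1s, AL ILC1s and FL G1-ILCs, 2541 to 2608 in SG G1-ILCs and 650.2 to 853 in BM iILC1s, against 4545 to 5529 in AL and BM NK cells. Those of 7 ILC1 markers were 742 to 3995 CPM in the 6 populations other than NK cells and 23.1 to 34.5 in NK cells. Markers of other cells stood high in a few libraries: 14 myeloid markers summed to 772 to 907 CPM in SG G1-ILCs and 188 to 1501 in BM iILC1s (the highest in replicate 2), against 4.56 to 52.3 in LPL ILC1s and the 3 adult liver populations. The myeloid sum was 54.8 to 200.2 CPM in FL G1-ILCs and 10 to 198 in BM NK cells, and *S100a8* and *S100a9* had no count in SG G1-ILCs. The 8 erythroid markers found summed to 0.503 to 415 CPM in AL 7R- ILC1s, with 160.6 and 415 in replicates 2 and 3. The 10 T cell markers summed to 1147 to 1581 CPM in LPL ILC1s, AL ILC1s, FL G1-ILCs and BM iILC1s, 419 to 463 in SG G1-ILCs and 492 to 663 in NK cells, where *Cd5* had no count in FL G1-ILCs, *Cd6* none in SG G1-ILCs and *Cd3e* none in AL NK cells. The 9 ILC2 and ILC3 markers summed to 189 to 499 CPM in LPL ILC1s and 143 to 201 in SG G1-ILCs, against 1.68 to 15.1 in the other 6 populations. The study names *Cd3g*, which encodes a CD3 chain, among its ILC1 signature genes. So the T cell list cannot tell T cells from transcripts of the ILC1s themselves. In bulk RNA of sorted cells, fewer cells of a type and less RNA per cell cannot be told apart.

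Glycolysis splits glucose into pyruvate. Hexokinases trap the sugar, phosphofructokinases commit it, and the enzymes from aldolase to pyruvate kinase recover the energy. Lactate dehydrogenase then turns pyruvate into lactate, which monocarboxylate transporters export, while pyruvate dehydrogenase sends it into mitochondria unless a PDH kinase switches that enzyme off. The pentose phosphate pathway branches off above phosphofructokinase and yields NADPH and ribose. HIF-1α, encoded by *Hif1a*, binds the promoters of many of these genes when oxygen is low or when lymphocytes are activated, and prolyl hydroxylases such as those of *Egln1* and *Egln3* mark it for destruction. Dividing and activated lymphocytes are known for high glycolysis.

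Because many members are known targets of HIF, their promoters are given here for the genes whose levels differed most between populations or that changed together with the rest. In RefSeq promoters on GRCm38.p6, 34 of the 36 members matched, and *Slc2a3* and *Ero1l* did not. The window was the 250 bases before the most upstream RefSeq start of each gene, and other starts were not searched. The HIF core, ACGTG or GCGTG on either strand, was found there in 29 of the 34 (85.3%). It was in 56.5% of the 9886 promoters of tested genes and 38.6% of all 27025 promoters. At least 2 cores were found in 17 of the 34, against 27.7% and 16.8%. In these counts 1 CACGTG gives 2 cores, because it holds the core on both strands. In *Pdk2* and *Pfkm* the 2 cores were those of 1 CACGTG. The E-box CACGTG, which contains the core, was in 6 (17.6%), against 8.2% and 6.04%. The median GC content was 61.6% in the members, 59.6% in promoters of tested genes and 52% in all promoters, and its part in these shares was not tested. The list was chosen to hold hypoxia genes and holds known HIF targets, so its higher shares are no independent result about the members. *Aldoa*, *Gpi1*, *Hk1*, *Pkm* and *Tpi1* had no core in this 1 window, which says nothing of any other start of these genes. The 4 sequences below read 5′ to 3′ on the strand of the gene up to the base before the start, and capitals mark the cores, or their reverse complements CACGT and CACGC. *Hk2* and *Egln3* are shown because LPL ILC1s held far more of them, *Ldha* because it was highest in FL G1-ILCs with the trunk of glycolysis, and *Ldhb* because it separated ILC1s from NK cells.
Hk2 (chr6:82774455-82774704, minus strand): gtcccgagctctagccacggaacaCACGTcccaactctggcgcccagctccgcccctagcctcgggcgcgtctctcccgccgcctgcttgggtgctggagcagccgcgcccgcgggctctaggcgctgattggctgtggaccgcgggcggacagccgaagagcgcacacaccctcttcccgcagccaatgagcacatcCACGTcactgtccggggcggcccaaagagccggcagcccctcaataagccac
Egln3 (chr12:54203875-54204124, minus strand): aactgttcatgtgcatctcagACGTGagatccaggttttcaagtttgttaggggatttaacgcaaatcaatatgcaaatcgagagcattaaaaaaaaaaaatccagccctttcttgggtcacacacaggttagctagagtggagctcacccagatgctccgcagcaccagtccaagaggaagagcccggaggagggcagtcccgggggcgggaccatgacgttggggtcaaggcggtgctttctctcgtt
Ldha (chr7:46845554-46845803, plus strand): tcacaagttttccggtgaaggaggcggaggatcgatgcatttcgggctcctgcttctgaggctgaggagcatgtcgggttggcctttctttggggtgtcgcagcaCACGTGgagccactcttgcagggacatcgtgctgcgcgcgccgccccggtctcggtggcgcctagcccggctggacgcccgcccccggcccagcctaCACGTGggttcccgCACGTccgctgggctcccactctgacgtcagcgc
Ldhb (chr6:142507958-142508207, minus strand): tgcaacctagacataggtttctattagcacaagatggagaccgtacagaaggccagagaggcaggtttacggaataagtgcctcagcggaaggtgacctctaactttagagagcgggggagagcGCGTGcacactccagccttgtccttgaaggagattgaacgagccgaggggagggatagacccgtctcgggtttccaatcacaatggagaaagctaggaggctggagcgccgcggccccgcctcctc
A match describes these letters and not a bound site. *Ldha* held the core 5 times, counting both strands of each CACGTG, *Hk2* 2 times, and *Egln3* and *Ldhb* 1 time each.

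All 36 members passed the filter on low counts, and 34 (94.4%) varied across the 8 populations by edgeR's quasi-likelihood test at an adjusted p under 0.05, where 77.7% of all 14123 tested genes did. The exceptions were *Pfkfb4* (adjusted p = 0.362) and *Pfkm* (adjusted p = 0.189), both at low levels. The range between the highest and the lowest population had a median of 1.75 on the log2 scale in the members, between 0.53 for *Taldo1* and 8.52 for *Hk2*, and a median of 1.58 in all genes. FL G1-ILCs had the highest mean for 20 members, and for 14 of these all fetal samples stood above every other library. LPL ILC1s were highest for 9 members (5 above every other library), AL 7R- ILC1s for 3, SG G1-ILCs for 2, and AL 7R+ ILC1s and AL NK cells for 1 each. The lowest mean was found in AL NK cells for 9 members, in AL 7R- ILC1s for 8, and in LPL ILC1s and AL 7R+ ILC1s for 7 each. These counts of highest and lowest populations were not made over all 14123 tested genes. They describe the members and cannot show whether the members differ from other genes.

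**Figure D1:**
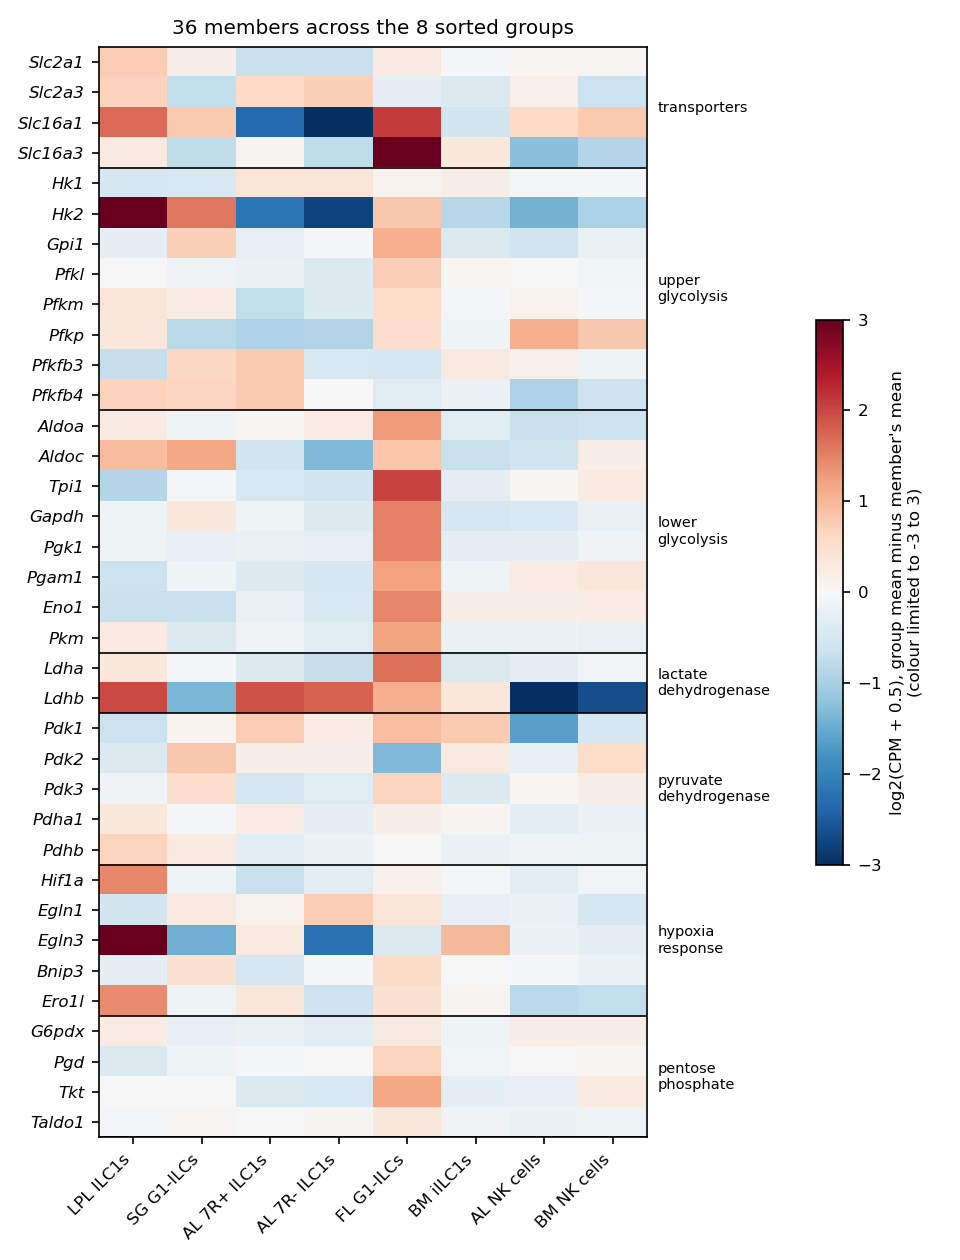
Group means of log2(CPM + 0.5) of the 36 members minus each member's mean over the 8 populations, ordered by role, with colour limited to -3 to 3. The FL G1-ILC column was the warmest for lower glycolysis apart from *Aldoc*, and the LPL ILC1 column stood out at *Hk2*, *Hif1a*, *Egln3* and *Ero1l*.

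Summed over the 8 genes of lower glycolysis, the level was 2139 ± 75.9 CPM in AL 7R- ILC1s (n = 4) and 6942 ± 171 in FL G1-ILCs (n = 3), and no sample outside FL G1-ILCs was above 2665 CPM. Lactate dehydrogenase summed to 1053 ± 64.4 CPM in LPL ILC1s (n = 4), 529.6 ± 18.8 in AL 7R- ILC1s, the lowest, and 2627 ± 66.9 in FL G1-ILCs. The pentose phosphate genes summed to 552 ± 40.6 CPM in AL 7R- cells and 987 ± 46.2 in FL G1-ILCs, and to at most 677 in a sample of any other population. The sums of these 3 roles thus set the fetal cells apart from all others. Not every gene in them did. *Ldhb* was highest in LPL ILC1s and *Aldoc* in SG G1-ILCs, and *G6pdx* in FL G1-ILCs was not above every other library. Upper glycolysis was more graded, at 1108 ± 36.7 CPM in LPL ILC1s, 682 ± 38.0 in AL 7R- ILC1s, the lowest, and 1196 ± 44.3 in FL G1-ILCs. Its sum was 990.1 ± 1.76 CPM in AL NK cells (n = 2) and 927 ± 9.23 in BM NK cells (n = 3). *Hk2* alone held 354 CPM of the LPL ILC1 sum and 11.8 of the FL G1-ILC sum. Of the 8 genes 3 were higher and 2 lower in LPL ILC1s than in AL 7R+ ILC1s, so the LPL sum does not stand for a rise of the whole role. Transporters reached 376 ± 27.4 CPM in LPL ILC1s and 366 ± 14.6 in FL G1-ILCs. The hypoxia genes were highest in LPL ILC1s at 589.9 ± 96.1 CPM, where the sum rests mainly on *Hif1a* and *Ero1l*, and next in FL G1-ILCs at 311 ± 33.9 CPM.

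**Figure D2:**
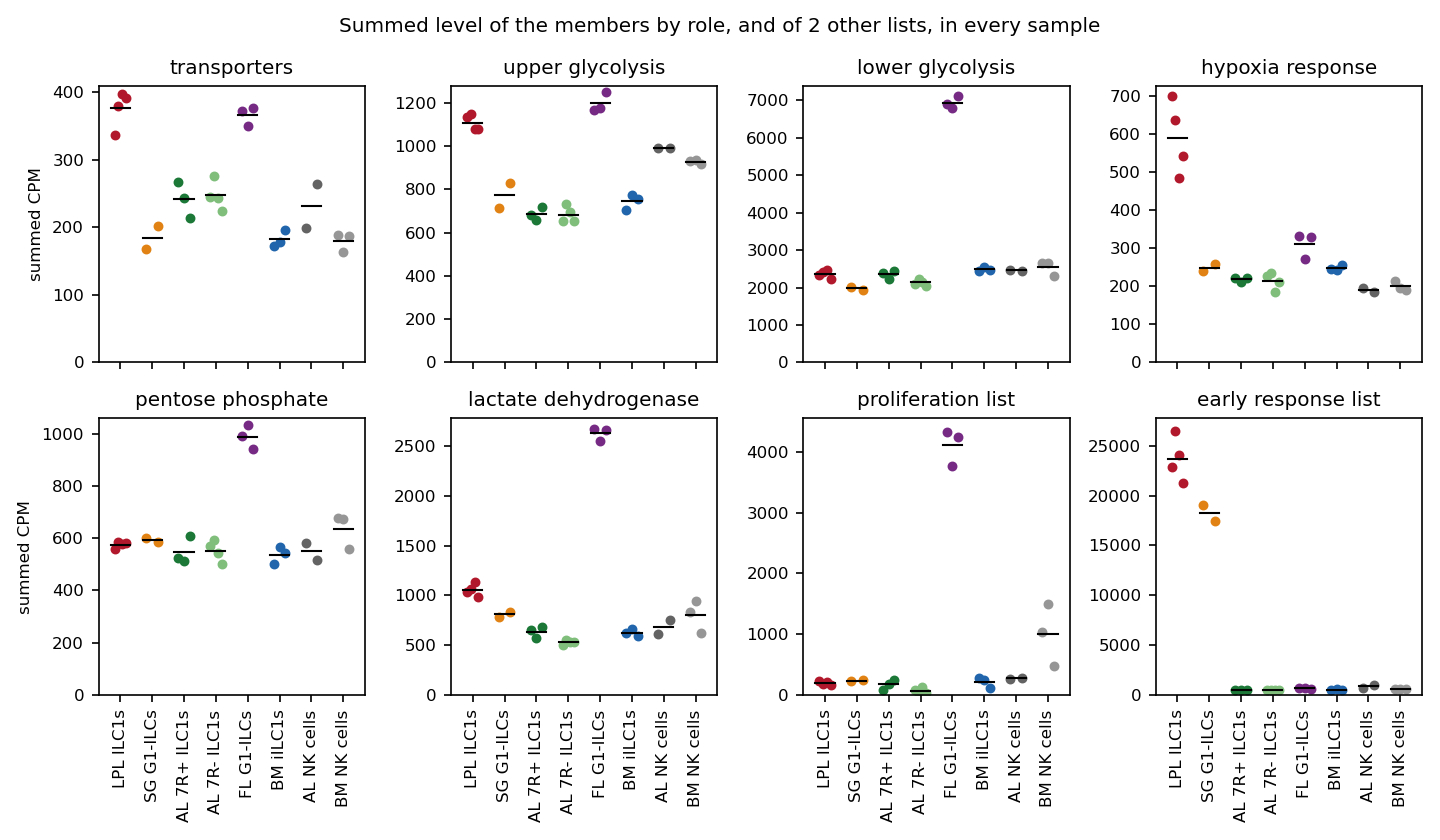
Summed CPM of the members of 6 roles, and of a proliferation list of 10 genes and an early response list of 11 genes, in every sample (points) of the 8 populations, with the group mean as a line. All 3 FL G1-ILC samples stood above the rest for lower glycolysis, lactate dehydrogenase, the pentose phosphate genes and proliferation, and all 4 LPL ILC1 samples for the hypoxia genes.

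Among the transporters, *Slc16a1* (MCT1, which carries lactate and other monocarboxylates) had the widest range. It stood at 46.1, 46.7, 46.8 and 65.4 CPM in LPL ILC1s, 21.2 and 34.1 in SG G1-ILCs, 0, 4.19 and 13.0 in AL 7R+ cells, 0.497, 0.169, 4.48 and 3.27 in AL 7R- cells and 73.2, 69.6 and 59.8 in FL G1-ILCs. The values were 15.1, 12.6 and 5.79 CPM in BM iILC1s, 21.1 and 25.9 in AL NK cells, with 30.7, 26.4 and 23.9 in BM NK cells. Every adult liver ILC1 library was below every NK cell library, and the 2 liver ILC1 populations overlapped. *Slc16a3* (MCT4, a lactate exporter) stood at 14.6, 16.3, 19.8 and 19.9 CPM in LPL ILC1s, 11.8 and 5.81 in SG G1-ILCs, 17.9, 12.6 and 16.0 in AL 7R+ cells, 13.7, 15.7, 12.9 and 1.51 in AL 7R- cells and 128, 98.4 and 139.7 in FL G1-ILCs. In BM iILC1s it was 14.5, 20.04 and 21.2 CPM, in AL NK cells 3.97 and 8.39 and in BM NK cells 6.83, 6.02 and 11.1. The fetal samples stood well above all others, and the other populations lay within a common low range.

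*Hk2*, the hexokinase isoform that is induced in activated lymphocytes, had the widest range of all members. Its values were 378, 355, 304 and 380.3 CPM in LPL ILC1s, 15.2 and 24.8 in SG G1-ILCs, 0.619, 0.662 and 1.84 in AL 7R+ cells, 1.24, 0.337, 0.289 and 0.251 in AL 7R- cells and 9.36, 18.1 and 8.04 in FL G1-ILCs. They were 1.57, 2.55 and 7.59 CPM in BM iILC1s, 1.62 and 2.40 in AL NK cells, with 2.33, 4.78 and 2.23 in BM NK cells. No library outside the gut came near the LPL ILC1 values, and in AL 7R- ILC1s the gene rested on 10 counts over 4 libraries. *Hk1*, the constitutive isoform, had group means of 139 ± 34.2 CPM in LPL ILC1s, its lowest, to 252 ± 32.0 in AL 7R- ILC1s, its highest.

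*Tpi1* (triosephosphate isomerase) and *Ldha* (the lactate dehydrogenase chain that predominates in lymphocytes) were among the members highest in FL G1-ILCs. *Tpi1* stood at 111, 97.5, 122 and 84.5 CPM in LPL ILC1s, 192 and 175 in SG G1-ILCs, 133, 128 and 148 in AL 7R+ cells, 123, 124, 129 and 128 in AL 7R- cells and 768, 737 and 816 in FL G1-ILCs. It was 162, 165 and 140.2 CPM in BM iILC1s, 198 and 190.1 in AL NK cells, with 240.2, 256 and 192 in BM NK cells. No library outside FL G1-ILCs was above 256 CPM. *Ldha* stood at 1016, 1044, 1115 and 964 CPM in LPL ILC1s, 782 and 835 in SG G1-ILCs, 640.4, 554 and 660.1 in AL 7R+ cells, 491, 533, 512 and 519.6 in AL 7R- cells and 2661, 2539 and 2652 in FL G1-ILCs. It was 617, 652 and 587 CPM in BM iILC1s, 616 and 753 in AL NK cells, with 834, 945 and 616 in BM NK cells. LPL ILC1s held the next rank, and AL 7R- ILC1s the lowest.

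*Ldhb*, the other lactate dehydrogenase chain, had another order of populations than *Ldha*. It was 16.0, 21.8, 19.3 and 17.2 CPM in LPL ILC1s, 1.41 and 1.26 in SG G1-ILCs, 16.1, 16.1 and 20.5 in AL 7R+ cells, 13.7, 16.7, 16.6 and 16.3 in AL 7R- cells and 8.79, 10.6 and 9.56 in FL G1-ILCs. In BM iILC1s it was 4.32, 6.09 and 6.39 CPM, in AL NK cells 0.1804 and 0 and in BM NK cells 0, 0 and 1.21. NK cells of liver and marrow had 1 and 6 counts in all, and SG G1-ILCs 10. *Aldoc*, a minor aldolase isoform, stayed low throughout, at 2.33, 5.16, 4.83 and 2.49 CPM in LPL ILC1s, 6.49 and 2.53 in SG G1-ILCs, 0.206, 1.77 and 1.27 in AL 7R+ cells, 1.24, 0.337, 0.145 and 0 in AL 7R- cells and 3.74, 3.18 and 2.61 in FL G1-ILCs. It was 1.37, 0.393 and 0.799 CPM in BM iILC1s, 0.361 and 1.68 in AL NK cells, with 1.00, 2.302 and 2.63 in BM NK cells.

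*Pdk1*, a PDH kinase and HIF target, stood at 19.2, 31.3, 29.7 and 29.1 CPM in LPL ILC1s, 44.0 and 46.5 in SG G1-ILCs, 60.2, 74.6 and 83.04 in AL 7R+ cells, 52.7, 55.0, 58.6 and 34.7 in AL 7R- cells and 79.5, 86.2 and 76.7 in FL G1-ILCs. It was 75.6, 81.1 and 63.1 CPM in BM iILC1s, 16.8 and 10.5 in AL NK cells, with 26.8, 28.3 and 35.2 in BM NK cells. Libraries of AL 7R+ ILC1s, FL G1-ILCs and BM iILC1s overlapped at the top, and AL NK cells were the lowest. Of the hypoxia genes, *Egln3* (a HIF prolyl hydroxylase that HIF itself induces) stood at 21.0, 40.4, 27.2 and 21.6 CPM in LPL ILC1s, 0 and 1.26 in SG G1-ILCs, 2.27, 2.87 and 2.76 in AL 7R+ cells, 0.249, 0, 0 and 0 in AL 7R- cells and 1.87, 0.723 and 1.96 in FL G1-ILCs. It was 3.73, 4.52 and 5.59 CPM in BM iILC1s, 3.07 and 0.959 in AL NK cells, with 1.00, 1.95 and 2.02 in BM NK cells. AL 7R- ILC1s had 1 count of *Egln3* over 4 libraries, while AL 7R+ ILC1s had 48 over 3. *Ero1l*, an oxidase for disulfide bonds in the endoplasmic reticulum, stood at 234, 262, 136 and 181 CPM in LPL ILC1s, 73.3 and 62.2 in SG G1-ILCs, 96.6, 89.2 and 97.6 in AL 7R+ cells, 37.8, 60.0, 50.3 and 46.5 in AL 7R- cells and 114, 84.8 and 110.2 in FL G1-ILCs. It was 70.9, 84.5 and 81.9 CPM in BM iILC1s, 50.3 and 34.5 in AL NK cells, with 44.7, 46.0 and 40.9 in BM NK cells.

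**Figure D3:**
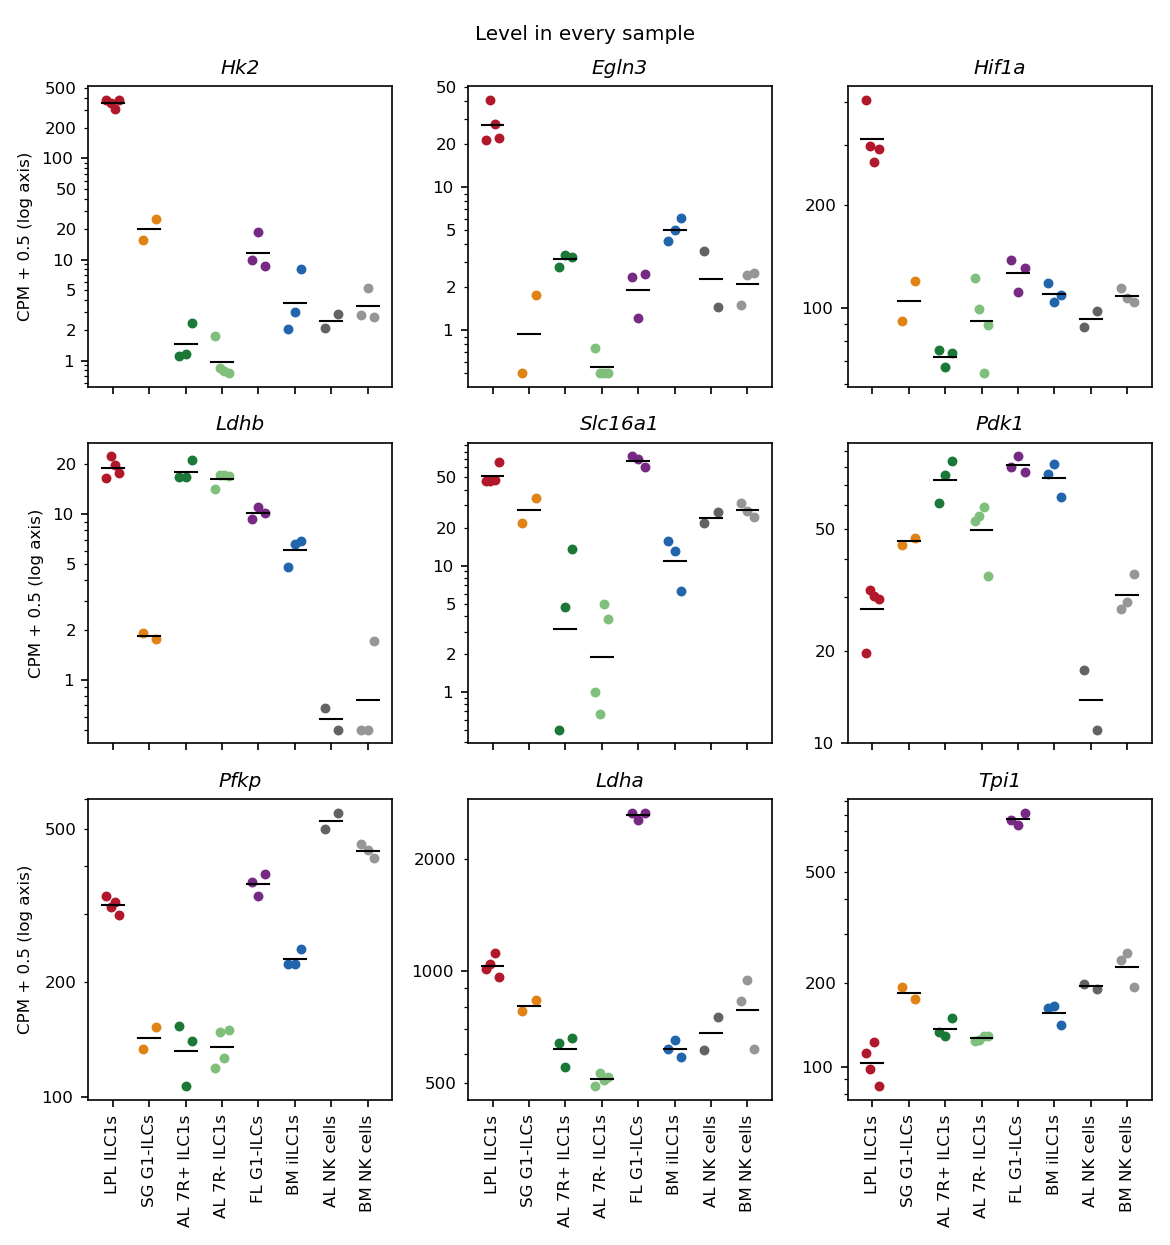
CPM + 0.5 on a log axis in every sample (points) of the 8 populations for 9 members, with the mean of the log values as a line. *Hk2*, *Egln3* and *Hif1a* were highest in LPL ILC1s, *Ldha* and *Tpi1* in FL G1-ILCs and *Pfkp* in NK cells, while *Ldhb* was near 0 in NK cells.

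The comparison of AL 7R- ILC1s with FL G1-ILCs asks what differs between ILC1s of the adult liver and the G1-ILCs of the fetal liver. Of the 36 members, 27 were lower in AL 7R- ILC1s and 2 were higher, where 22.4% of all tested genes were lower and 20.1% were higher. The median log2 fold change was -1.06 in the members and 0.06 in all genes. All 8 genes of lower glycolysis and all 4 of the pentose phosphate pathway were lower, as were 4 of 8 genes of upper glycolysis, 3 of 4 transporters, 3 of 5 genes of the pyruvate dehydrogenase role and 4 of 5 hypoxia genes. *Eno1* (enolase) stood at 705, 796, 714 and 739 CPM in AL 7R- ILC1s, against 2823, 2848 and 2882 in FL G1-ILCs (log2 fold change -1.95 ± 0.06 (SE), adjusted p = 6.59e-18). *Tpi1* and *Ldha* fell by more, with -2.62 ± 0.11, adjusted p = 1.19e-15 and -2.35 ± 0.10, adjusted p = 2.10e-15. *Tkt*, the transketolase of the pentose phosphate pathway, stood at 151, 160.0, 135 and 111 CPM in AL 7R- ILC1s, against 460.1, 445 and 395 in FL G1-ILCs (-1.64 ± 0.13). For these 4 genes each fetal sample lay above all 4 adult ones. The largest fitted changes were those of *Slc16a1* (-4.93 ± 0.61), *Hk2* (-4.58 ± 0.52), *Egln3* (-4.35 ± 0.91) and *Slc16a3* (-3.45 ± 0.37). With 1 count of *Egln3* in AL 7R- ILC1s, its level was 29.7 times lower by counts, with a 95% counting interval of 4.84 to 1221, and for *Hk2* with 10 counts it was 26.2 times lower (14 to 55.5). The fitted fold changes of such genes depend on the prior count.

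The remaining genes that were lower in AL 7R- ILC1s spanned log2 fold changes of -2.91 for *Aldoc* to -0.26 for *Taldo1*. They included *Gapdh* (-1.92), *Pgk1* (-1.77), *Pgam1* (-1.71), *Pkm* (-1.56), *Pfkp* (-1.41), *Pfkl* (-1.13), *Gpi1* (-1.11), *Aldoa* (-1.06), *Ero1l* (-1.07), *Pdk3* (-1.05), *Slc2a1* (-0.90), *Pdk1* and *Pgd* (-0.68 each), *Bnip3* (-0.63) and *G6pdx* (-0.61). The 2 members that were higher run against the rest. *Slc2a3* (GLUT3, a high-affinity glucose transporter) stood at 202, 212, 175 and 176 CPM in AL 7R- ILC1s, against 91.9, 94.6 and 98.2 in FL G1-ILCs (1.01 ± 0.13, adjusted p = 3.07e-07). *Pdk2* (a PDH kinase) stood at 19.1, 23.8, 19.5 and 23.1 CPM in AL 7R- ILC1s, against 7.30, 9.55 and 5.43 in FL G1-ILCs (1.51 ± 0.24, adjusted p = 1.24e-05). *Hk1*, *Ldhb*, *Egln1*, *Pfkm*, *Pfkfb3*, *Pfkfb4* and *Pdhb* did not pass the test, at log2 fold changes of -1.10 for *Pfkm* to 0.71 for *Ldhb*. The proliferation list moved with this comparison: all 10 of its genes were lower in AL 7R- ILC1s, with a summed level of 32.4 to 129 CPM, against 3763 to 4335 in FL G1-ILCs. Of the 11 early response genes 6 were lower and 1 was higher, with 450.2 to 514 CPM in AL 7R- ILC1s, against 609.6 to 733 in FL G1-ILCs. Of the tested cell type markers, 4 of 11 myeloid, 3 of 8 erythroid and 2 of 8 B cell markers were lower in AL 7R- ILC1s. Of the T cell markers 3 of 9 were higher, as were all 7 ILC1 markers. The myeloid markers summed to 12.4 to 52.3 CPM in AL 7R- ILC1s, against 54.8 to 200.2 in FL G1-ILCs, and the erythroid markers to 0.503 to 415 CPM in AL 7R- ILC1s, against 26.4 to 222 in FL G1-ILCs. The part of these lists in the result was not tested.

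The calls of *Taldo1*, *Pdha1* (-0.44) and *Hif1a* (-0.44) depended on single libraries. *Taldo1* was lost without AL 7R- replicate 1 or 4 or FL replicate 2 or 4 (-0.25 to -0.22). *Pdha1* was lost without AL 7R- replicate 1 or FL replicate 1 or 2 (-0.39 to -0.25), and *Hif1a* without AL 7R- replicate 3 or 4 or FL replicate 1 or 4 (-0.42 to -0.29). A fit without AL 7R- replicates 2 and 3, in which erythroid markers were high, and BM iILC1 replicate 2 was chosen after seeing the data. It called 22 members lower and 2 higher, where 2585 of all genes were lower and 2229 higher. With library totals as the only scaling, the median of all genes moved to 0.16. Then 24 members were lower and 4 higher, where 2786 of all genes were lower and 3335 higher.

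**Figure D4:**
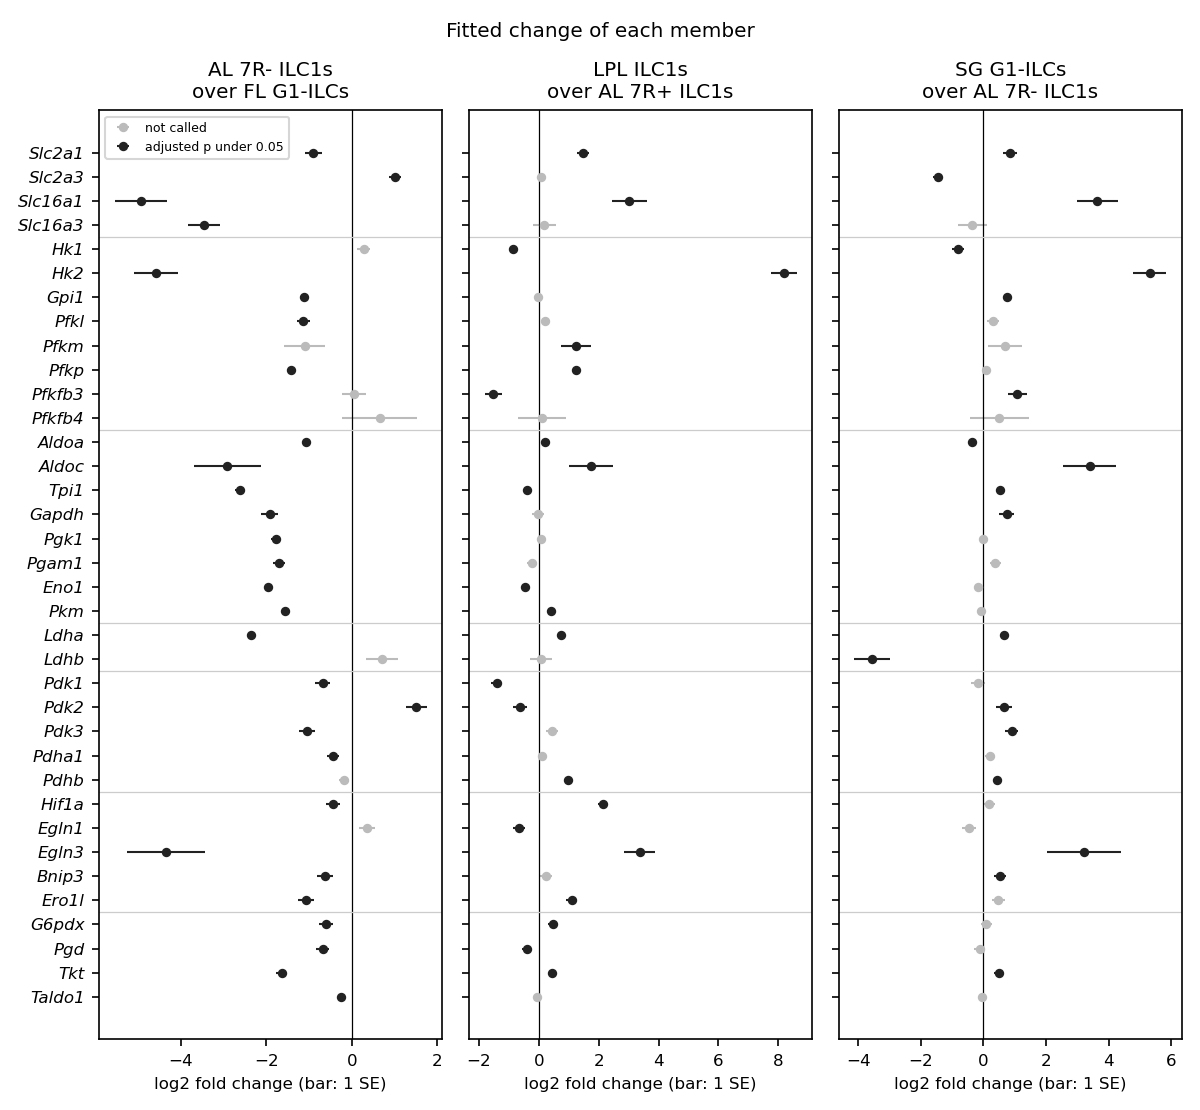
Log2 fold change with its SE for each of the 36 members in AL 7R- ILC1s over FL G1-ILCs, LPL ILC1s over AL 7R+ ILC1s, and SG G1-ILCs over AL 7R- ILC1s, with members at an adjusted p under 0.05 in black. In the comparison with FL G1-ILCs 27 points lay in black to the left of 0, while the gut comparison had 15 in black to the right and 8 to the left.

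LPL ILC1s were set against AL 7R+ ILC1s, the liver population that shares their IL-7 receptor, to ask how gut and liver ILC1s differ. Of the members, 15 were higher in LPL ILC1s and 8 were lower, where 24.8% of all genes were higher and 26.2% lower. The median log2 fold change was 0.19 in the members and -0.02 in all genes. *Hk2* carried the largest change, at 354 ± 35.3 CPM in LPL ILC1s and 1.04 ± 0.694 in AL 7R+ ILC1s (8.19 ± 0.42, adjusted p = 7.02e-15). *Egln3* was at 27.6 ± 9.03 CPM in LPL ILC1s, against 2.63 ± 0.320 in AL 7R+ ILC1s (3.37 ± 0.51, adjusted p = 4.12e-06), and *Slc16a1* at 51.2 ± 9.43 CPM in LPL ILC1s, against 5.74 ± 6.64 in AL 7R+ ILC1s (3.03 ± 0.57, adjusted p = 8.60e-05). For these 3 genes no LPL library overlapped with those of AL 7R+ ILC1s. *Hif1a* stood at 407, 298, 266 and 291 CPM in LPL ILC1s, against 74.9, 66.7 and 73.2 in AL 7R+ ILC1s (2.14 ± 0.17, adjusted p = 4.04e-11). Its LPL ILC1 values stood above those of every other library. *Slc2a1* (GLUT1, the glucose transporter of activated lymphocytes) rose as well, with 84.3, 129, 154 and 102 CPM in LPL ILC1s, against 51.0, 39.1 and 36.7 in AL 7R+ ILC1s (1.48 ± 0.20). *Pfkp* (1.25), *Ero1l* (1.10), *Pdhb* (0.96), *Ldha* (0.74), *G6pdx* (0.48), *Tkt* (0.43), *Pkm* (0.41), *Aldoa* (0.20), *Pfkm* (1.23, overlapping) and *Aldoc* (1.75) made up the rest.

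The members that were lower in LPL ILC1s were of several roles. *Pfkfb3*, which makes the activator of phosphofructokinase, stood at 9.92, 14.6, 10.4 and 15.8 CPM in LPL ILC1s, against 32.6, 45.7 and 31.6 in AL 7R+ ILC1s (-1.52 ± 0.29, adjusted p = 7.70e-05). *Pdk1* fell by a like amount (-1.41 ± 0.19, adjusted p = 6.99e-07), and no library of LPL ILC1s reached those of AL 7R+ ILC1s. *Hk1* stood at 146, 133, 179.7 and 97.0 CPM in LPL ILC1s, against 243, 247 and 260.3 in AL 7R+ ILC1s (-0.85 ± 0.15, adjusted p = 4.40e-05). *Egln1* (-0.66), *Pdk2* (-0.63, overlapping), *Eno1* (-0.47), *Pgd* (-0.40, overlapping) and *Tpi1* (-0.40) were lower too. The 13 members that did not pass lay between -0.23 for *Pgam1* and 0.45 for *Pdk3*. All 11 genes of the early response list (*Fos*, *Jun*, heat shock genes and others known to be induced within minutes) were higher in LPL ILC1s, with a summed level of 21280.2 to 26435 CPM, against 452 to 521 in AL 7R+ ILC1s. Cell type markers moved too. In LPL ILC1s 4 of 6 tested ILC2 and ILC3 markers and 7 of 9 T cell markers were higher. So were 5 of 7 NK cell and 2 of 8 B cell markers, while 1 T cell and 1 NK cell marker were lower. Of the 7 ILC1 markers 4 were lower in LPL ILC1s and 1 was higher. ILC2 and ILC3 markers summed to 189 to 499 CPM in LPL ILC1s, against 4.95 to 8.75 in AL 7R+ ILC1s, where *Il17a* and *Il13* had no count. T cell markers summed to 1359 to 1545 CPM in LPL ILC1s, against 1161 to 1232 in AL 7R+ ILC1s, and NK cell markers to 124 to 329.9 CPM in LPL ILC1s, against 31.8 to 42.2 in AL 7R+ ILC1s. What part these lists had in the result was not tested.

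LPL ILC1 libraries had TMM factors of 0.774 to 0.797, against 0.944 to 1.12 elsewhere. With library totals as the only scaling, the median of all genes moved to -0.48. The split was then 9 members higher and 16 lower, where 1966 of all genes were higher and 6059 lower. *Aldoa* (-0.26), *Pkm* (-0.05) and *Tkt* (-0.04) turned round. Calls that did not hold with 1 library left out were *Pfkm* (0.91 to 1.15 without LPL replicate 1 or 4, or AL 7R+ replicate 1 or 2), *Aldoc* (1.30 to 1.90 without LPL replicate 2 or 3, or AL 7R+ replicate 1 or 3), *Pdk2* (-0.61 to -0.46 without LPL replicate 1 or 2, or AL 7R+ replicate 1 or 2), *Aldoa* (0.17 to 0.19 without LPL replicate 2 or 3, or AL 7R+ replicate 2), *Pgd* (-0.24 without LPL replicate 4 or AL 7R+ replicate 3), *G6pdx* (0.36 without LPL replicate 2) and *Tkt* (0.32 without AL 7R+ replicate 2).

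SG G1-ILCs were set against AL 7R- ILC1s. Of the members, 15 were higher in SG G1-ILCs and 4 were lower, where 17.8% of all genes were higher and 14.6% lower, and the median log2 fold change was 0.41 in the members and -0.03 in all genes. *Hk2* (5.31 ± 0.54, adjusted p = 1.03e-08) and *Slc16a1* (3.64 ± 0.66, adjusted p = 9.23e-05) rose here too, with *Hk2* at 20 ± 6.74 CPM in SG G1-ILCs, against 0.530 ± 0.476 in AL 7R- ILC1s. By counts *Hk2* was 42.2 times higher, with a counting interval of 22.3 to 89.9. *Aldoc* was at 4.51 ± 2.80 CPM in SG G1-ILCs and 0.431 ± 0.558 in AL 7R- ILC1s (3.40 ± 0.84, adjusted p = 0.00241). The others that rose were *Egln3* (3.21, 5 counts in SG G1-ILCs against 1 in AL 7R- ILC1s, overlapping), *Pfkfb3* (1.09), *Pdk3* (0.91), *Slc2a1* (0.86), *Gpi1* (0.75), *Gapdh* (0.74), *Pdk2* (0.66), *Ldha* (0.65), *Tpi1* (0.54), *Bnip3* (0.53), *Tkt* (0.49) and *Pdhb* (0.44). The 17 members that did not pass lay between -0.45 for *Egln1* and 0.69 for *Pfkm*.

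*Ldhb* was the member with the largest fall in SG G1-ILCs, at 1.34 ± 0.104 CPM, against 15.8 ± 1.45 in AL 7R- ILC1s (-3.55 ± 0.57, adjusted p = 1.71e-05). By counts it was 12.0 times lower, with a counting interval of 6.46 to 25.3. *Slc2a3* stood at 73.0 and 65.9 CPM in SG G1-ILCs, against 202, 212, 175 and 176 in AL 7R- ILC1s (-1.46 ± 0.15, adjusted p = 2.23e-08). *Hk1* stood at 109 and 177 CPM in SG G1-ILCs, against 216, 273, 284 and 233 in AL 7R- ILC1s (-0.81 ± 0.18), and *Aldoa* at 476 and 453 CPM in SG G1-ILCs, against 587, 633, 622 and 536 in AL 7R- ILC1s (-0.36 ± 0.09). So the salivary gland cells held more GLUT1 and less GLUT3 transcript than the liver cells. All 11 early response genes were higher in SG G1-ILCs, with a summed level of 17405 to 19067 CPM, against 450.2 to 514 in AL 7R- ILC1s, and 5 of 10 proliferation genes were higher. NK cell markers summed to 2541 to 2608 CPM in SG G1-ILCs, against 59.2 to 93.7 in AL 7R- ILC1s, and myeloid markers to 772 to 907 CPM in SG G1-ILCs, against 12.4 to 52.3 in AL 7R- ILC1s. ILC2 and ILC3 markers summed to 143 to 201 CPM in SG G1-ILCs, against 2.46 to 4.22 in AL 7R- ILC1s, with 1 of 6 tested markers higher. Of the T cell markers 5 of 9 were lower and 1 was higher in SG G1-ILCs, and 3 of 8 erythroid and 2 of 8 B cell markers were lower. Of the 7 ILC1 markers 3 were lower in SG G1-ILCs and 1 was higher. The part of these lists in the result was not tested.

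SG G1-ILCs have 2 libraries, so a fit without either of them rests on 1 SG sample. The number of members that were higher was 12 without AL 7R- replicates 2 and 3 and BM iILC1 replicate 2, where 2089 of all genes were higher. With library totals as the only scaling, the median of all genes moved to -0.18. The split was then 11 members higher and 7 lower, where 2075 of all genes were higher and 2927 lower. Lost without SG replicate 1 were *Pdhb* (0.36), *Gapdh* (0.64), *Tkt* (0.52), *Aldoc* (2.57), *Hk1* (-0.51), *Pdk2* (0.66) and *Bnip3* (0.62), and without SG replicate 2 *Slc2a1* (0.52), *Pfkfb3* (0.79), *Pdk3* (0.72), *Tkt* (0.45), *Pdk2* (0.65), *Bnip3* (0.42) and *Egln3*, which turned to -1.56. Without single AL 7R- libraries *Pdk2* (0.60 to 0.69 without replicate 1, 3 or 4), *Bnip3* (0.47 to 0.53 without replicate 1, 2 or 3) and *Egln3* (2.80 to 3.00 without replicate 2, 3 or 4) were lost.

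The adult liver ILC1 populations were each set against AL NK cells, so both comparisons share the same 2 NK cell libraries. In AL 7R- ILC1s 6 members were higher and 9 lower (9.94% and 10.5% of all genes), and in AL 7R+ ILC1s 6 were higher and 6 lower (7.96% and 7.61%). The median log2 fold changes were -0.03 and 0.06 in the members. *Ldhb* stood at 15.8 ± 1.45 CPM in AL 7R- cells and 17.6 ± 2.54 in AL 7R+ ILC1s, against 0.0902 ± 0.128 in AL NK cells, where it had 1 count. By counts it was 156 times higher in AL 7R- ILC1s (95% counting interval 27.7 to 6165) and 177 times higher in AL 7R+ ILC1s (31.5 to 7011), with adjusted p = 1.51e-07 and 1.61e-07 in edgeR's test. *Pdk1* was higher in both (1.87 ± 0.24 in AL 7R- and 2.39 ± 0.25 in AL 7R+ ILC1s), and so was *Aldoa* (aldolase), at 553, 507 and 544 CPM in AL 7R+ ILC1s and 587, 633, 622 and 536 in AL 7R- cells, against 332 and 314 in AL NK cells (0.73 ± 0.09 in AL 7R+ and 0.88 ± 0.09 in AL 7R- ILC1s). *Slc2a3* was higher by 0.54 in AL 7R- ILC1s and, with overlapping libraries, by 0.44 in AL 7R+ ILC1s.

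*Pfkp*, the platelet-type phosphofructokinase, was lower in both liver ILC1 populations. It stood at 153, 106 and 139 CPM in AL 7R+ ILC1s and 119, 147, 126 and 149 in AL 7R- cells, against 500.4 and 552 in AL NK cells (-1.98 ± 0.12, adjusted p = 1.93e-12 in AL 7R+ ILC1s, and -1.96 ± 0.11, adjusted p = 3.26e-13 in AL 7R- ILC1s). All 7 liver ILC1 libraries lay far below both NK cell libraries. *Slc2a1* stood at 51.0, 39.1 and 36.7 CPM in AL 7R+ ILC1s and 29.1, 48.4, 51.1 and 43.5 in AL 7R- cells, against 67.5 and 73.1 in AL NK cells (-0.74 in AL 7R+ and -0.70 in AL 7R- ILC1s). *Slc16a1* (-1.90 ± 0.64 and -3.40 ± 0.66), *Pgam1* (-0.65 and -0.73), *Eno1* (-0.37 and -0.66) and *Tpi1* (-0.51 and -0.62) were lower in both as well, in the order AL 7R+ and AL 7R-. In AL 7R- ILC1s *Egln3* was also lower (-4.83 ± 0.93, adjusted p = 2.95e-04), by 45.1 times by counts with an interval of 7.25 to 1864, as were *G6pdx* (-0.55) and *Ldha* (-0.41), and *Gpi1* (0.54) was higher. *Egln1*, the main HIF prolyl hydroxylase, stood at 36.03, 43.8, 44.1 and 41.2 CPM in AL 7R- ILC1s, against 22.0 and 20.6 in AL NK cells (0.95 ± 0.22, adjusted p = 0.00233). In AL 7R+ ILC1s *Ero1l* (1.15 ± 0.22) and *Pdha1* (0.56) were higher. The proliferation list had 8 of 10 genes lower in AL 7R- ILC1s and 1 of 10 in AL 7R+ ILC1s, relative to AL NK cells, and the early response list 7 and 5 of 11 genes. Of the T cell markers 6 of 9 were higher in AL 7R- ILC1s and 3 of 9 in AL 7R+ cells, with sums of 1373 to 1550.2 and 1161 to 1232 CPM, against 492 to 541 in AL NK cells. In AL 7R- ILC1s 2 of 11 myeloid markers and 1 of 8 erythroid markers were also higher. What part these lists had in the result was not tested. The members that did not pass lay between -1.97 for *Hk2* and 0.88 for *Slc16a3* in AL 7R- ILC1s (21 members), and between -0.84 for *Pfkm* and 1.51 for *Pfkfb4* in AL 7R+ ILC1s (24 members).

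AL NK cells have 2 libraries, and several calls rested on 1 of them. For AL 7R- ILC1s, *G6pdx* (-0.32), *Slc2a1* (-0.76), *Slc2a3* (0.28), *Gpi1* (0.53) and *Egln3* (-3.74) were lost without AL NK replicate 1, and *Slc2a1* (-0.65), *Ldha* (-0.27) and *Egln1* (0.90) without replicate 2. *G6pdx* was also lost without AL 7R- replicate 2 or 3 (-0.51 and -0.52), and *Slc2a1* without AL 7R- replicate 1 (-0.55). For AL 7R+ ILC1s the number of members that were lower was 3 without AL 7R+ replicate 2. How many of all genes were called in that fit is not given here. *Slc16a1* was lost without either AL NK library or without AL 7R+ replicate 1 or 2 (-2.05 to -1.38), and by DESeq2 (adjusted p = 0.161). *Slc2a1* was lost without either AL NK library or without AL 7R+ replicate 2 or 3 (-0.80 to -0.64), *Pgam1* without either AL NK library or without AL 7R+ replicate 2 (-0.68 to -0.55) and *Tpi1* without AL NK replicate 1 (-0.48). Of the higher ones, *Slc2a3* was lost without AL NK replicate 1 (0.18) or AL 7R+ replicate 1 or 2 (0.35 and 0.40), and *Pdha1* without either AL NK library or AL 7R+ replicate 1 or 3 (0.46 to 0.66).

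Between the liver ILC1 populations, 6 members were higher in AL 7R+ ILC1s and 1 was lower, where 3.06% and 2.22% of all genes were, with a median of 0.10 in the members. *Egln3* was the largest change (5.17 ± 0.84, adjusted p = 1.63e-04), at 48 counts over 3 AL 7R+ libraries and 1 over 4 AL 7R- libraries, 55.4 times higher by counts with an interval of 9.48 to 2234. All 3 AL 7R+ values were above all 4 of AL 7R- ILC1s. *Pfkfb3* stood at 32.6, 45.7 and 31.6 CPM in AL 7R+ ILC1s, against 14.7, 16.7, 19.2 and 10.1 in AL 7R- ILC1s (1.25 ± 0.28, adjusted p = 0.00501), and *Ero1l* had 94.4 ± 4.58 CPM in AL 7R+ ILC1s, against 48.7 ± 9.22 in AL 7R- ILC1s (0.95 ± 0.18, adjusted p = 9.40e-04). *Eno1* was higher by a small amount (914, 890.2 and 898 CPM in AL 7R+ ILC1s, against 705, 796, 714 and 739 in AL 7R- ILC1s, 0.29 ± 0.06, adjusted p = 0.00337). *Egln1* ran the other way at 24.6, 28.9 and 26.5 CPM in AL 7R+ ILC1s, against 36.03, 43.8, 44.1 and 41.2 in AL 7R- ILC1s (-0.63 ± 0.19, adjusted p = 0.0485). The calls of *Egln1*, *Pkm* (0.25, adjusted p = 0.0494) and *Pdha1* (0.49, adjusted p = 0.0489, overlapping) lay close to the threshold. Each of the 7 libraries, when left out, ended that of *Egln1* (-0.69 to -0.58), 6 of 7 that of *Pkm* (0.19 to 0.27) except AL 7R+ replicate 2, and 5 of 7 that of *Pdha1* (0.36 to 0.52), except AL 7R- replicate 2 and AL 7R+ replicate 2. The 29 members that did not pass lay between -0.45 for *Bnip3* and 1.5 for *Slc16a1*. With library totals as the only scaling 6 members were higher and 0 lower, where 509 and 273 of all genes were. Of the 10 proliferation genes 2 were higher in AL 7R+ ILC1s, at 78.8 to 251 CPM summed, against 32.4 to 129 in AL 7R- ILC1s. Of the erythroid markers 4 of 8 were lower in AL 7R+ ILC1s, at 0.619 to 1.99 CPM summed, against 0.503 to 415 in AL 7R- ILC1s, and *Hba-a1*, *Hba-a2*, *Hbb-bs* and *Klf1* had no count in AL 7R+ ILC1s. Of the NK cell markers 4 of 7 were lower in AL 7R+ ILC1s and 1 was higher, and 4 of 9 T cell markers were lower. Of the 7 ILC1 markers 2 were higher in AL 7R+ ILC1s and 1 was lower. The part of these lists in the result was not tested.

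In bone marrow, BM iILC1s were set against BM NK cells. Here 4 members were higher and 5 lower, where 6.55% and 5.55% of all genes were, with a median of 0.02. *Ldhb* stood at 5.6 ± 1.12 CPM in BM iILC1s, against 0.405 ± 0.701 in BM NK cells (3.83 ± 0.58, adjusted p = 2.74e-05), 15.5 times higher by counts with an interval of 6.82 to 43.3. *Pdk1* (1.28 ± 0.20, adjusted p = 4.69e-05) and *Ero1l* (0.85 ± 0.20) were higher as well. *Aldoa* stood at 407, 391 and 394 CPM in BM iILC1s, against 329.9, 309 and 336 in BM NK cells (0.29 ± 0.08). *Pfkp* stood at 222, 222 and 243 CPM in BM iILC1s, against 457, 440.4 and 420.4 in BM NK cells (-0.94 ± 0.11, adjusted p = 5.41e-07). *Tkt* stood at 144, 173 and 159 CPM in BM iILC1s, against 236, 281 and 199 in BM NK cells (-0.59 ± 0.14), and *Tpi1* (-0.56 ± 0.12), *Pgam1* (-0.48) and *Ldha* (-0.37, overlapping) were lower too. All 10 proliferation genes were lower in BM iILC1s, with a summed level of 118 to 277 CPM, against 469.9 to 1498 in BM NK cells. Cell type markers were higher in BM iILC1s for 8 of 11 myeloid, 8 of 9 T cell and 4 of 8 erythroid genes tested. The myeloid markers summed to 188 to 1501 CPM in BM iILC1s, against 10 to 198 in BM NK cells, where *Elane* had no count. The T cell markers summed to 1264 to 1581 CPM in BM iILC1s, against 572 to 663 in BM NK cells, and the erythroid markers to 9.04 to 202 CPM in BM iILC1s, against 1.82 to 3.36 in BM NK cells. What part these lists had in the result was not tested. The 27 members that did not pass lay between -1.27 for *Slc16a1* and 1.47 for *Egln3*. The number of members that were lower was 2 without BM NK replicate 2 and 3 without BM NK replicate 1 or BM iILC1 replicate 1 or 3. How many of all genes were called in these fits is not given here. *Pgam1* (-0.52 to -0.41 without any BM iILC1 library or BM NK replicate 1 or 2), *Ldha* (-0.37 to -0.23 without BM iILC1 replicate 1 or 3, or BM NK replicate 1 or 2), *Tkt* (-0.46 without BM NK replicate 2) and *Aldoa* (0.27 and 0.26 without BM iILC1 replicate 1 and BM NK replicate 2) were lost.

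The difference of ILC1s over NK cells was compared between liver (AL 7R+ ILC1s over AL NK cells) and marrow (BM iILC1s over BM NK cells) with an interaction term, which called 1 member higher and 1 lower, where 1.35% and 1.74% of all genes were. For *Pfkp* the deficit of ILC1s was larger in liver, by -1.04 ± 0.16, adjusted p = 2.30e-04. For *Aldoa* the excess of ILC1s was larger in liver, by 0.44 ± 0.12, adjusted p = 0.0421, a call that was lost without AL 7R+ replicate 1 or 3, BM NK replicate 1 or 3, or any library of BM iILC1s or AL NK cells (0.40 to 0.49). With library totals as the only scaling 2 members were higher and 1 lower, where 206 and 231 of all genes were. With DESeq2's size factors 0 and 2 were, with 176 and 260 of all genes. The interaction also called 6 of 7 NK cell and 2 of 8 erythroid markers lower and 2 of 7 ILC1 markers higher. The part of these lists in the result was not tested. The 34 members that did not pass lay between -1.13 for *Egln3* and 3.28 for *Ldhb*.

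AL 7R+ ILC1s set directly against BM iILC1s had 3 members higher and 3 lower (3.84% and 4.23% of all genes), with a median of -0.04. *Slc2a3* stood at 198, 188 and 148 CPM in AL 7R+ ILC1s, against 77.9, 86.2 and 94.2 in BM iILC1s (1.04 ± 0.13, adjusted p = 4.53e-06). *Ldhb* (1.65 ± 0.40, adjusted p = 0.00851) and *Aldoa* (0.43 ± 0.08) were higher too, with *Aldoa* at 553, 507 and 544 CPM in AL 7R+ ILC1s, against 407, 391 and 394 in BM iILC1s. *Eno1* stood at 914, 890.2 and 898 CPM in AL 7R+ ILC1s, against 1121, 1235 and 1145 in BM iILC1s (-0.37 ± 0.07). *Pfkp* (-0.78 ± 0.11) and *Hif1a* (-0.62 ± 0.17, adjusted p = 0.0223) were lower too, with *Hif1a* at 74.9, 66.7 and 73.2 CPM in AL 7R+ ILC1s, against 118, 103 and 109 in BM iILC1s. *Hif1a* was lost without any AL 7R+ library or BM iILC1 replicate 1 or 3 (-0.65 to -0.56), and *Ldhb* without BM iILC1 replicate 1 (1.49). Of the cell type markers, 9 of 11 myeloid, all 7 NK cell and 2 of 8 erythroid markers were lower in AL 7R+ ILC1s. Of the T cell markers 5 of 9 were lower and 1 was higher. Of the 7 ILC1 markers 5 were higher in AL 7R+ ILC1s and 0 were lower. The myeloid markers summed to 4.86 to 19.8 CPM in AL 7R+ ILC1s, against 188 to 1501 in BM iILC1s, and the NK cell markers to 31.8 to 42.2 CPM in AL 7R+ ILC1s, against 650.2 to 853 in BM iILC1s. The part of these lists in the result was not tested. The 30 members that did not pass lay between -1.69 for *Hk2* and 0.59 for *Pfkfb4*.

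AL NK cells and BM NK cells differed in 2 members, 1 higher and 1 lower in liver (1.57% and 1.01% of all genes), with a median of -0.06. *Slc2a3* stood at 106 and 157 CPM in AL NK cells, against 67.5, 71.7 and 83.2 in BM NK cells (0.82 ± 0.15, adjusted p = 0.0016), and *Pdk1* at 13.7 ± 4.40 CPM in AL NK cells, against 30.1 ± 4.47 in BM NK cells (-1.12 ± 0.25, adjusted p = 0.0116). Without AL NK replicate 2 both were lost, at 0.52 and -0.84, and without BM NK replicate 3 the number of members that were lower was 3. How many of all genes were lower without BM NK replicate 3 is not given here. With library totals as the only scaling 1 member was higher and 2 were lower, where 176 and 234 of all genes were. Of the 10 proliferation genes 4 were lower in AL NK cells, at 262 to 281 CPM summed, against 469.9 to 1498 in BM NK cells, and 5 of the 11 early response genes were higher, at 727 to 1035 CPM summed in AL NK cells, against 574 to 626 in BM NK cells. Of the cell type markers, 1 of 11 myeloid and 1 of 9 T cell markers were lower in AL NK cells. What part these lists had in the result was not tested. The 34 members that did not pass lay between -1.63 for *Ldhb* and 0.34 for *Pfkfb4*.

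Within enzyme families, levels per exon length were turned into shares. The length was that of all annotated exons of a gene and not of the transcripts expressed, so ranks of isoforms can depend on it. In FL G1-ILCs, for example, *Slc2a3* stood above *Slc2a1* by CPM (94.9 against 81.0) but held 36.2% of the level per length. *Hk2* held 78.4% ± 5.80 (SD) of the *Hk1* and *Hk2* level in LPL ILC1s, 16.6% ± 0.0299 in SG G1-ILCs, 7.57% ± 3.64 in FL G1-ILCs and under 3% in each of the other 5 populations on average, so LPL ILC1s were the population where the inducible isoform exceeded *Hk1*. *Pfkp* held 39.4% ± 5.04 of the phosphofructokinase level in AL 7R+ ILC1s, 42.5% ± 3.94 in AL 7R- cells and 47.6% ± 2.84 in BM iILC1s, against 67.8% ± 5.91 in AL NK cells, with 65.4% ± 3.29 in BM NK cells. *Pfkl*, the liver type, held 55.4% ± 5.87 in AL 7R+ ILC1s, against 28.0% ± 7.79 in AL NK cells. *Pfkm*, the muscle type, stayed under 10% on average in every population. *Ldhb* held at most 6.09% ± 0.379 of lactate dehydrogenase, in AL 7R- ILC1s, with 5.65% ± 0.568 in AL 7R+ cells. These shares describe transcripts and not the enzymes. *Slc2a3* held 68.4% ± 6.21 of the GLUT1 and GLUT3 level in AL 7R- cells and 67.1% ± 2.49 in AL 7R+ ILC1s, with the lowest share, 30.7% ± 7.92, in SG G1-ILCs. *Pdk1* held 33.3% ± 6.81 of the PDH kinase level in AL 7R+ cells and 31.9% ± 3.52 in BM iILC1s, against 7.07% ± 1.16 in AL NK cells, with 12.2% ± 2.27 in BM NK cells. *Pdk2* held 5.89% ± 1.68 in FL G1-ILCs, its lowest, and *Pdk3* had the highest mean share in all 8 populations. *Egln3* held 68.1% ± 7.16 of the *Egln1* and *Egln3* level in LPL ILC1s, 22.9% ± 3.07 in BM iILC1s and 11.8% ± 0.629 in AL 7R+ cells, against 0.231% ± 0.461 in AL 7R- ILC1s.

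**Figure D5:**
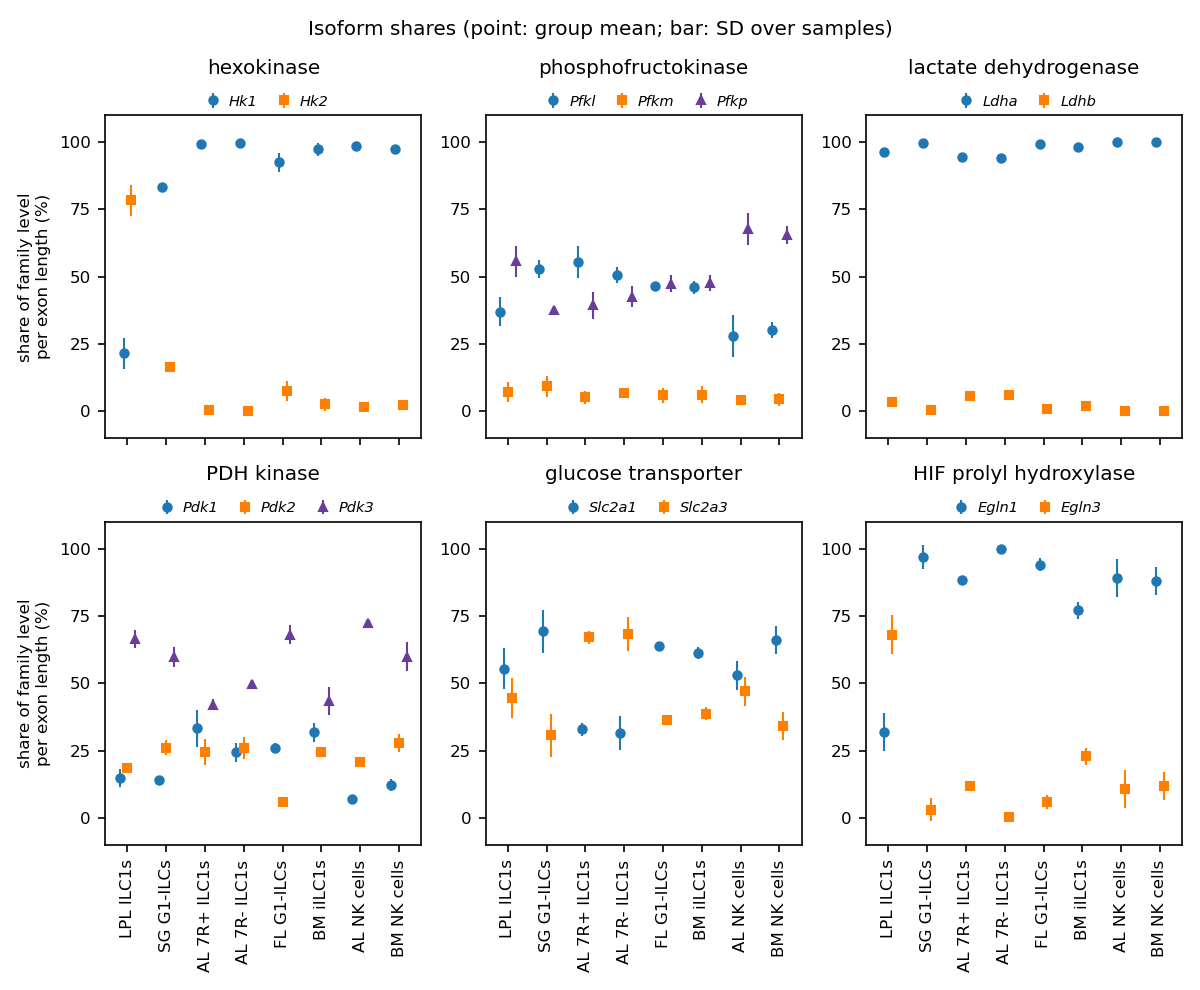
Share (%) of each isoform in the level per exon length of its family, as the group mean (marker) with the SD over samples (bar), for 6 families in the 8 populations. *Hk2* and *Egln3* passed their partner isoform in LPL ILC1s, *Slc2a3* passed *Slc2a1* in adult liver ILC1s, and *Pfkp* stood clear of *Pfkl* in LPL ILC1s and NK cells.

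Other genes of the same pathways were counted from lists set by pathway. Of these, 23 of 30 other glycolysis and pyruvate genes, 7 of 7 other pentose phosphate genes and 22 of 24 other hypoxia genes were tested. In LPL ILC1s over AL 7R+ ILC1s, 10, 1 and 10 of them were higher and 3, 3 and 2 lower, in that order of lists. Of all tested genes 24.8% were higher and 26.2% lower. *Vegfa* (the angiogenic growth factor, a HIF target) stood at 497 ± 68.8 CPM in LPL ILC1s, against 0.296 ± 0.143 in AL 7R+ ILC1s, where it had 6 counts (10.45 ± 0.33, adjusted p = 3.39e-19). *Epas1*, encoding HIF-2α, stood at 131 ± 24.8 CPM in LPL ILC1s, against 3.88 ± 0.502 in AL 7R+ ILC1s (5.08 ± 0.35), and *Bhlhe40*, a transcription factor that hypoxia induces, at 5248 ± 216 CPM in LPL ILC1s, against 237 ± 18.1 in AL 7R+ ILC1s (4.47 ± 0.11). *Slc2a6*, a lysosomal sugar transporter, rose by 4.00 ± 0.31, while *H6pd*, the endoplasmic reticulum counterpart of *G6pdx*, fell (-2.84 ± 0.24).

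In SG G1-ILCs over AL 7R- ILC1s 6, 1 and 9 of the listed genes were higher and 1, 0 and 2 lower, where 17.8% of all genes were higher and 14.6% lower. *Vegfa* stood at 640.5 ± 75.8 CPM in SG G1-ILCs, against 0.522 ± 0.473 in AL 7R- ILC1s (10.30 ± 0.29, adjusted p = 7.14e-20), and *Ndrg1*, a hypoxia-inducible gene, at 33.8 ± 8.46 CPM in SG G1-ILCs, against 0.667 ± 0.326 in AL 7R- ILC1s (5.6 ± 0.51). *Epas1* was lower in SG G1-ILCs (-1.86 ± 0.72, adjusted p = 0.0487). In AL 7R- ILC1s over FL G1-ILCs 3, 0 and 6 were higher and 6, 3 and 6 lower, so that the hypoxia list had equal numbers in each direction. Of all genes 20.1% were higher and 22.4% lower. *Ankrd37* (-3.49 ± 0.50), a HIF target, and *Mif* (-1.60 ± 0.12), a cytokine, were lower, as was *Prps1* (-1.25 ± 0.20), which uses ribose phosphate to make nucleotide precursors, and *Mxi1* (1.47 ± 0.35), a partner of MAX, was higher.

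The remaining comparisons had smaller shares of calls among all genes, and the counts of these lists are given beside those shares. *Slc2a8*, an intracellular glucose transporter, was higher in ILC1s than in NK cells, by 2.73 ± 0.21 in AL 7R- cells and 3.13 ± 0.21 in AL 7R+ ILC1s over AL NK cells and by 1.64 ± 0.17 in BM iILC1s over BM NK cells, with 134 ± 2.53 CPM in AL 7R+ ILC1s, 101 ± 17.2 in AL 7R- cells and 15.1 ± 3.09 in AL NK cells. *Vegfa* was lower in the liver ILC1 populations than in AL NK cells (-4.59 ± 0.42 in AL 7R- and -5.10 ± 0.48 in AL 7R+ ILC1s), at 0.296 ± 0.143 CPM in AL 7R+ cells and 0.522 ± 0.473 in AL 7R- cells, against 12.1 ± 1.22 in AL NK cells. Counts for the 3 lists were 1, 1 and 0 higher and 3, 0 and 3 lower in AL 7R- ILC1s over AL NK cells (all genes 9.94% and 10.5%). They were 1, 0 and 0 higher and 2, 0 and 2 lower in AL 7R+ ILC1s over AL NK cells (7.96% and 7.61%). In BM iILC1s over BM NK cells they were 1, 2 and 1 higher and 2, 0 and 3 lower (6.55% and 5.55%). AL 7R+ ILC1s over AL 7R- ILC1s had 2, 0 and 0 higher and 0, 1 and 0 lower (3.06% and 2.22%). AL 7R+ ILC1s over BM iILC1s had 1, 0 and 1 higher and 1, 1 and 3 lower (3.84% and 4.23%). AL NK cells over BM NK cells had 0, 0 and 1 in each direction (1.57% and 1.01%).

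Some members share reads with other genes. *Gapdh* had 4304 counts in all, against 12300 in 74 near-identical copies elsewhere in the genome, and the reads of *Gapdh* and of its copies cannot be told apart. Its deposited level was 90.9 ± 4.92 CPM in FL G1-ILCs, the highest of the 8 populations. With the copies summed, *Gapdh* was lower in AL 7R- ILC1s than in FL G1-ILCs (-2.07) and higher in SG G1-ILCs than in AL 7R- ILC1s (0.42), in the direction of the deposited counts. It was then also lower in BM iILC1s than in BM NK cells (-0.42, adjusted p = 0.0426), and called in the interaction (0.76, adjusted p = 0.0376). *Eno1* had 3.59% and *Pgam1* 2.83% of their counts in copies. The counting is not stated to use strand, and exons on the opposite strand overlap *Pfkp* (*Pitrm1*, 748 bases), *Gpi1* (741), *Pdha1* (603), *G6pdx* (*Ikbkg*, 418, with 8190 counts against 5541 of *G6pdx*) and *Hif1a* (330), so reads of these pairs may be mixed.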

How the data were processed

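RNA of sorted cells was made into libraries with a SMART-seq HT kit, which does not mark strand. The labels give 2000 cells per library, while the study's methods give a smaller number. The authors deposited raw read counts of 46078 genes in 25 libraries, made by trimming in fastp (0.23.0), alignment to the mm10 build in HISAT2 (2.1.0) and gene-level counting in featureCounts (Subread 1.6.5). The annotation release and the handling of reads with several matches are not given in the sources used here.

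The deposited counts were tested with edgeR 4.0.16 in R 4.3.3 (quasi-likelihood test, TMM scaling, filterByExpr with a count minimum of 10), with the 8 populations in 1 fit, Benjamini-Hochberg adjustment over 14123 genes and calls at an adjusted p under 0.05. SEs are the log2 fold change divided by the square root of F. The script was tested on simulated counts. DESeq2 1.42.0, other scalings, filters and left-out libraries were alternatives. A pseudocount of 0.5 CPM was used for plotted log values. Gene names were matched for 45229 identifiers, and the 849 without a name held 0.104% of counts. Near-identical copies of members were found with BLAST 2.17.0+ at 95% identity over 200 bases. Counting intervals cover counting error only. Values in every sample were given for the 10 members with the widest range and, per comparison, for up to 3 called members in each direction whose groups did not overlap. Of other lists, up to 3 called genes per direction were named. The members and lists were chosen with earlier results of these data known.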

Additional observations from a re-analysis of the deposited data

Results flagged for a closer look

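In LPL ILC1s and AL 7R- ILC1s, the groups of 4 samples, the highest and the lowest value of each member were checked by the gap to the nearest value over the whole range (Dixon's critical value at the 95% level). Of the 72 sets of 4 values 9 passed, where by its construction this criterion picks about 1 in 20 by chance. In LPL ILC1s, *Slc16a1* stood at 65.4 CPM in replicate 4, against 46.1 to 46.8 in the others, and *Tkt* at 227 CPM in replicate 4, against 182 to 186. *Gapdh* stood at 22.4 CPM in LPL ILC1 replicate 2 (30.2 to 30.9 in the others) and *Egln1* at 22.9 CPM in LPL ILC1 replicate 3 (14.1 to 15.2). In AL 7R- ILC1 replicate 1, *Hk2* stood at 1.24 CPM (0.251 to 0.337 in the others), *Ldhb* at 13.7 CPM (16.3 to 16.7) and *Egln3* at 0.249 CPM (0 in the others), which is 1 count, so that any count at all passed. *Gapdh* stood at 16.3 CPM in AL 7R- ILC1 replicate 4 (26.1 to 26.6 in the others) and *Pgk1* at 94.2 CPM in AL 7R- ILC1 replicate 2 (85.8 to 87.0).

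The difference of ILC1s over NK cells differed between liver and marrow for 2 members by edgeR's interaction term, *Pfkp* (-1.04, adjusted p = 2.30e-04) and *Aldoa* (0.44, adjusted p = 0.0421).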

How the results depend on the processing

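Over the 124 called results of single members, 1148 of 1232 values from other settings kept their direction and call, 81 lost the call and 3 turned round, which were *Aldoa* (-0.26), *Pkm* (-0.05) and *Tkt* (-0.04) in LPL ILC1s over AL 7R+ ILC1s with library totals as the only scaling. With 1 library left out, 669 of 799 did, 129 lost the call, and *Egln3* in SG G1-ILCs over AL 7R- ILC1s ranged from -1.56 (without SG replicate 2) to 4.78. Counts below are of members called higher or lower, and the cause of each change was not tested. The number of all genes called changed between settings too. In LPL ILC1s over AL 7R+ ILC1s it went from 3498 higher and 3706 lower to 1966 and 6059 with library totals. Only the larger shifts of member counts are listed, and smaller ones occurred.

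In AL 7R- ILC1s over FL G1-ILCs, 4 were higher with DESeq2, library totals, or only the compared groups. In LPL ILC1s over AL 7R+ ILC1s, 9 were higher and 16 lower with library totals, 9 were higher without the filter, and 5 were lower with only the compared groups. In SG G1-ILCs over AL 7R- ILC1s, 7 were lower with library totals and 10 were higher without the filter. In AL 7R+ over AL 7R- ILC1s, 0 were lower with library totals, without the filter, with the replicate block, or without the 3 libraries high in other cells' markers (added after seeing the data). In AL 7R+ ILC1s over BM iILC1s, 5 were lower with DESeq2 or without the filter. In AL NK over BM NK cells, 2 were lower with DESeq2, library totals, no filter, a count minimum of 50, the 25 libraries counted apart, or only the compared groups. In the interaction, 2 were higher with DESeq2, library totals, a count minimum of 50, 25 libraries, only the compared groups, or copies summed (added after seeing the data), 0 with DESeq2's size factors, the replicate block or without the 3 libraries, and 2 were lower with DESeq2 or its size factors. With a log2 fold change over 1 in size also required, AL 7R- ILC1s over AL NK cells kept 2 higher and 3 lower, 3 and 2 in AL 7R+ ILC1s over AL NK cells, 2 and 0 in AL 7R+ over AL 7R- ILC1s, 2 and 0 in BM iILC1s over BM NK cells, 9 and 2 in LPL ILC1s over AL 7R+ ILC1s, and 5 and 2 in SG G1-ILCs over AL 7R- ILC1s. It left 0 lower in AL 7R+ ILC1s over BM iILC1s, 0 higher in AL NK over BM NK cells and 0 higher in the interaction. The numbers of all genes that met this limit are not given here, so these counts cannot be read as particular to the members.

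With 1 library left out, the counts ranged from 0 to 1 lower in AL 7R+ over AL 7R- ILC1s, 9 to 14 higher in SG G1-ILCs over AL 7R- ILC1s, 2 to 5 lower in AL 7R+ ILC1s over AL NK cells, 2 to 5 lower in BM iILC1s over BM NK cells, 0 to 1 higher and 0 to 3 lower in AL NK over BM NK cells, and 0 to 1 higher in the interaction. The numbers of all genes called with 1 library left out are not given here, so these ranges cannot be read as particular to the members. No sign of pairing by replicate number was seen. Same-numbered libraries of different groups had a mean correlation of -0.0045 over 74 pairs (different numbers 0.0017 over 197). Of 25 libraries 6 correlated best with their own number. With so few libraries per group this check cannot exclude shared animals, which neither the study nor the labels give. Members with under 20 counts in a group (*Egln3*, *Ldhb*, *Hk2*, *Aldoc*, *Pfkfb4*) are limited by depth.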
